A study of Mus musculus with 4 samples.

Results

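The aldehyde dehydrogenases Aldh1a1, Aldh1a2, Aldh1a3, Aldh1a7, Aldh2 and Aldh3a1 and the retinoid handling genes Crabp1, Crabp2 and Stra6 were followed in ID8G and GO2 mouse ovarian cancer cells. A probe was assigned to one of these genes when the RefSeq accession that the array gives for it carries that gene symbol. Of the 9 symbols, 8 matched at least 1 probe, and together they had 10 of the 56605 probes on the array. Crabp2 had no matched probe and was not analysed here. ID8 cells come from ovarian surface epithelium of C57BL/6 mice that transformed spontaneously in culture, and ID8G cells are ID8 cells that express GFP from a retrovirus. GO2 cells descend from ID8G cells. They were sorted as CD45-negative, GFP-positive cells from omental tumors of C57BL/6J mice injected intraperitoneally, after a second cycle of injection and recovery, and were grown in culture again. The sample labels describe the GO2 line as maintained in medium, while their source names read omental tumor, and the account given here follows the former. Both lines were kept in the same DMEM with FBS, insulin, transferrin and sodium selenite, and RNA of each was measured on 2 one-color arrays. GO2 is 1 derived line, and nothing states that the 2 samples of a line were separate cultures, so the p values measure the spread between these samples only. The study compared the lines for genes that accompany the spread of GO2 cells in the peritoneal cavity, and here that comparison is read for the enzymes that make retinoic acid or clear reactive aldehydes and for the proteins that carry retinoids.

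Cells obtain retinol from the blood carrier RBP4, in many tissues through the membrane receptor STRA6, and hold it on cellular retinol-binding proteins. Alcohol and retinol dehydrogenases oxidize retinol to retinaldehyde, and the ALDH1A enzymes oxidize retinaldehyde to retinoic acid in a step that is not reversed. Retinoic acid is bound in the cytoplasm by CRABP1 and CRABP2, acts in the nucleus through RAR and RXR receptors, and is broken down by CYP26 enzymes. In ovarian cancer, ALDH1A1 is widely used, by its level or by the enzyme activity it contributes to, to mark cells with stem-like properties, and Aldh1a2 is known from the mesothelium and other linings of the body cavity.

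The promoters of 3 ALDH1A genes are shown because these genes encode closely related enzymes. Of their probes, that of Aldh1a2 was called and those of Aldh1a1 and Aldh1a7 were not. Each runs from 250 bases before to 50 bases after the start site, 5′ to 3′ on the strand of the gene, from RefSeq on GRCm38.p6. Capitals mark CCAAT and the octamer ATGCAAAT. The windows lie at chr9:71215539-71215838 (plus strand) for Aldh1a2, chr19:20601718-20602017 (plus strand) for Aldh1a1 and chr19:20727507-20727806 (minus strand) for Aldh1a7.
Aldh1a2: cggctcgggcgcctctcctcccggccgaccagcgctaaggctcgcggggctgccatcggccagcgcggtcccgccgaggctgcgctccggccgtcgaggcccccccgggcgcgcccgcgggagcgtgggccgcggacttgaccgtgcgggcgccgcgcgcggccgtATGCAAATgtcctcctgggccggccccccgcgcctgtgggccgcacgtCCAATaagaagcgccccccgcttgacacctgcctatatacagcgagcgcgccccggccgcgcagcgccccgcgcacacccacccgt
Aldh1a1: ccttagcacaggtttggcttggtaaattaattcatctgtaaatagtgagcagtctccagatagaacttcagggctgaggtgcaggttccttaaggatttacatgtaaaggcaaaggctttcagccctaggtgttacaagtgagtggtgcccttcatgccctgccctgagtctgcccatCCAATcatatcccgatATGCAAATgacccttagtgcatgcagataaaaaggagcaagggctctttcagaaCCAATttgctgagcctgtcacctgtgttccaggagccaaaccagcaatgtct
Aldh1a7: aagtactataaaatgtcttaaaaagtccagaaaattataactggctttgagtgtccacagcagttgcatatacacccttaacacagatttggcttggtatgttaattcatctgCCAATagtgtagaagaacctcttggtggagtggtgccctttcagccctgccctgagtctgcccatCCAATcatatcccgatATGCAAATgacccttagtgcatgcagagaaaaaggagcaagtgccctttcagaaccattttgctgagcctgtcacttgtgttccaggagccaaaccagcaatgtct

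The GC content of the Aldh1a2 window was 78.0%, against 47.0% for Aldh1a1 and 44.0% for Aldh1a7. All 3 windows hold CCAAT and ATGCAAAT in the direction of the gene. In the Aldh1a2 window they begin 36 and 84 bases before the start site, and the octamer of both other windows begins 56 bases before it. Searched on both strands, CCAAT was present in 37.4% of the 32851 promoters of the same length in the reference table and ATGCAAAT in 1.74%. The half-site AGGTCA, found in 16.3% of promoters, was not in any of these 3 windows, while TATAAA, found in 13.6%, was in the Aldh1a7 window only. In these windows no motif overlaps another. Aligned from the start site without gaps, the windows of Aldh1a1 and Aldh1a7 matched at 142 of the last 150 bases (94.7%) and at 35 of the first 150 (23.3%). Aldh1a1 has 2 start sites in the table, and the one shown is the one whose window is more like that of Aldh1a7. The motifs were chosen after the values were seen, and a match is a description of the letters only. Of the member genes, 5 have a promoter in the table, and Aldh1a3, Aldh2, Aldh3a1 and Crabp2 are named only.

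Levels are on the log2 scale, relative to the 75th percentile of each array. That percentile was an intensity of 675 and 668 for ID8G cells and of 635 and 627 for GO2 cells. A level depends on the probe, so no gene is set against another. Between 27507 and 28876 probes per array were well above background. A probe was tested with limma when at least 1 line had it well above background on each of its arrays, which held for 28370 probes. Calls needed a difference of at least 2-fold and an adjusted p below 0.05 by the Benjamini-Hochberg method. By this rule 2224 tested probes (7.84%) were called, 1277 (4.5%) of them higher in GO2 cells and 947 (3.34%) lower. Scaling the arrays to their spike-ins in place of the 75th percentile moved the median difference of all probes from -0.02 to -0.23 and gave 1102 higher and 1434 lower, so that 43.5% of calls were higher in place of 57.4%. Replicate arrays correlated across probes with r of 0.997 in both lines. The arrays lay on 1 slide. Of the 2 numbers that give an array's position on it, the first differed between the lines and cannot be told apart from cell line, and the second was shared by both lines. An exact permutation test of 2 arrays against 2 cannot go below p = 0.333, and the p values given here draw on limma's pooled variance.

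Of the 10 member probes, 7 were tested, in 6 genes. Aldh1a2 was called higher in GO2 cells (1 of 7 tested probes, beside 4.5% of all tested probes called higher and 7.84% called either way), and 0 were called lower, beside 3.34%. At an adjusted p below 0.05 with no minimum fold, Aldh1a2 and Aldh3a1 were higher (2 of 7 probes, beside 17.0% of all tested probes) and both probes of Aldh2 were lower (2 of 7, beside 18.9%), which makes 4 of 7 in either direction beside 35.9%. Aldh1a1, Aldh1a7 and Stra6 did not pass. The median difference of the 7 probes was 0.078, beside -0.02 for all tested probes. For 6 of the 7 the arrays of the lines did not overlap, beside 73.5% of all tested probes. The members that were not tested, Aldh1a3 and Crabp1, were not well above background on any of the 4 arrays.

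**Figure D1:**
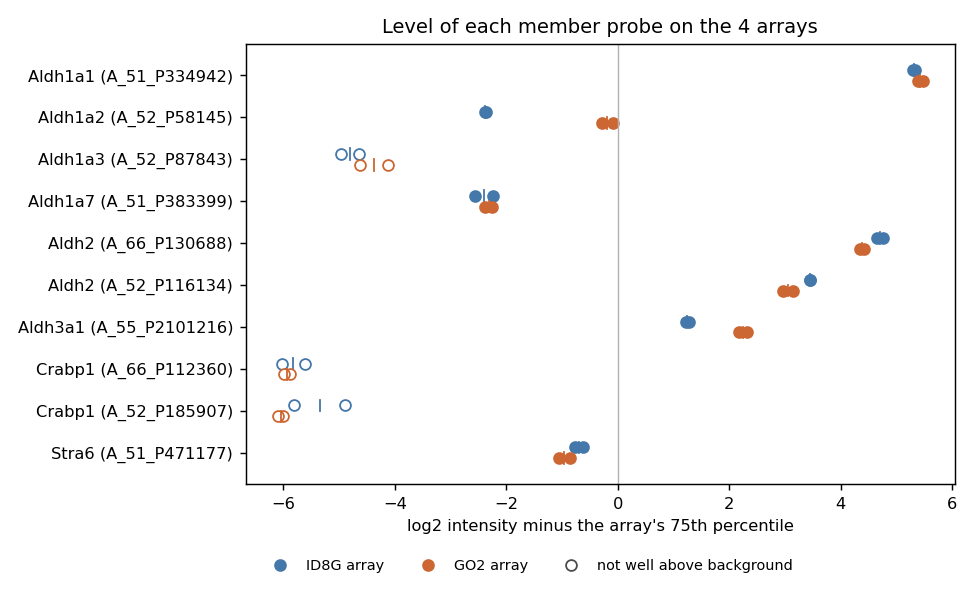
Level of the 10 member probes on each of the 4 arrays, on the log2 scale relative to the array's 75th percentile; points are arrays, short lines are the mean of 2 arrays, and open points are arrays on which the probe was not well above background. The GO2 arrays lie to the right of the ID8G arrays for Aldh1a2 (from -2.37 and -2.39 to -0.29 and -0.09) and Aldh3a1 (from 1.23 and 1.27 to 2.31 and 2.16). They also do so for Aldh1a1, by only 0.045 to 0.18, and for Aldh1a3, whose points are all open. Levels should be read within a probe only.

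Among the enzymes that make retinoic acid, Aldh1a2 rose in GO2 cells and Aldh1a1 did not pass the test. Aldh1a2, which encodes the retinaldehyde dehydrogenase that makes much of the retinoic acid of the embryo, had levels of -2.37 and -2.39 in ID8G cells and -0.29 and -0.09 in GO2 cells (probe A_52_P58145). These are intensities of 130 and 127 in ID8G cells and 518 and 588 in GO2 cells, and the probe was well above background on all 4 arrays. Both GO2 arrays lay above both ID8G arrays, by 2.08 to 2.30 on the log2 scale over the array pairs. The mean difference was 2.19 (standard error 0.086, 95% interval 1.95 to 2.43, limma adjusted p = 0.000502), or 4.56-fold, and 98.1% of all tested probes had a smaller signed difference. With 1 array left out the difference was 2.09 to 2.29, with a limma adjusted p of 0.0034 to 0.0040. Since these are bulk samples, more cells with Aldh1a2 RNA and more of it per cell cannot be told apart.

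Aldh1a1 encodes the cytosolic enzyme that oxidizes retinaldehyde and many other aldehydes. Its probe A_51_P334942 had levels of 5.33 and 5.29 in ID8G cells and 5.46 and 5.38 in GO2 cells, at intensities of 26031 to 28027 without a saturated spot. The GO2 arrays were both above the ID8G arrays, by 0.045 to 0.18. The mean difference was 0.11 (standard error 0.060, 95% interval -0.054 to 0.28, limma adjusted p = 0.22), so that a change of 2-fold lies outside the interval in either direction. Scaled to the spike-ins the difference was -0.097, still above the median of all probes under that scaling.

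Aldh1a7, a rodent gene that lies near Aldh1a1 on chromosome 19 and is closely related to it in sequence, had levels of -2.24 and -2.56 in ID8G cells and -2.38 and -2.26 in GO2 cells. The arrays of the lines overlapped, and the difference of 0.078 (95% interval -0.27 to 0.43, limma adjusted p = 0.66) did not pass the test. It was -0.082 without the second ID8G array and -0.13 under spike-in scaling. Whether RNA of one of these 2 genes also binds the probe of the other was not tested, because the probe sequences were not used here. Aldh1a3, the third retinaldehyde dehydrogenase of this group, had levels between -4.97 and -4.13 over the 4 arrays, none of them well above background, and has no fold.

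Of the aldehyde-clearing enzymes, Aldh3a1 was almost 2-fold higher in GO2 cells and Aldh2 was lower by a smaller amount. Aldh3a1 encodes a dehydrogenase of medium-chain and lipid-derived aldehydes that is abundant in the cornea. Its levels were 1.23 and 1.27 in ID8G cells and 2.31 and 2.16 in GO2 cells, with both GO2 arrays above both ID8G arrays. The difference was 0.99 (standard error 0.072, 95% interval 0.79 to 1.18, limma adjusted p = 0.0021), or 1.98-fold, just under the 2-fold minimum. It was 1.06 without the second GO2 array and 1.01 without the second ID8G array, where the probe was called, and 0.78 under spike-in scaling and 0.92 with normexp background correction.

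Aldh2 encodes the mitochondrial enzyme that oxidizes acetaldehyde, and both of its probes moved the same way. Probe A_66_P130688 had levels of 4.65 and 4.76 in ID8G cells and 4.35 and 4.41 in GO2 cells. Probe A_52_P116134 had levels of 3.45 and 3.44 in ID8G cells and 2.96 and 3.13 in GO2 cells. On both probes the GO2 arrays lay below the ID8G arrays. The differences were -0.32 (95% interval -0.51 to -0.14, limma adjusted p = 0.027) and -0.40 (95% interval -0.61 to -0.18, limma adjusted p = 0.026), which is 1.25-fold and 1.32-fold lower. Neither reached 2-fold, and with 1 array left out the adjusted p was 0.052 to 0.11 for the first and 0.034 to 0.091 for the second, which was below 0.05 only without the second GO2 array.

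**Figure D2:**
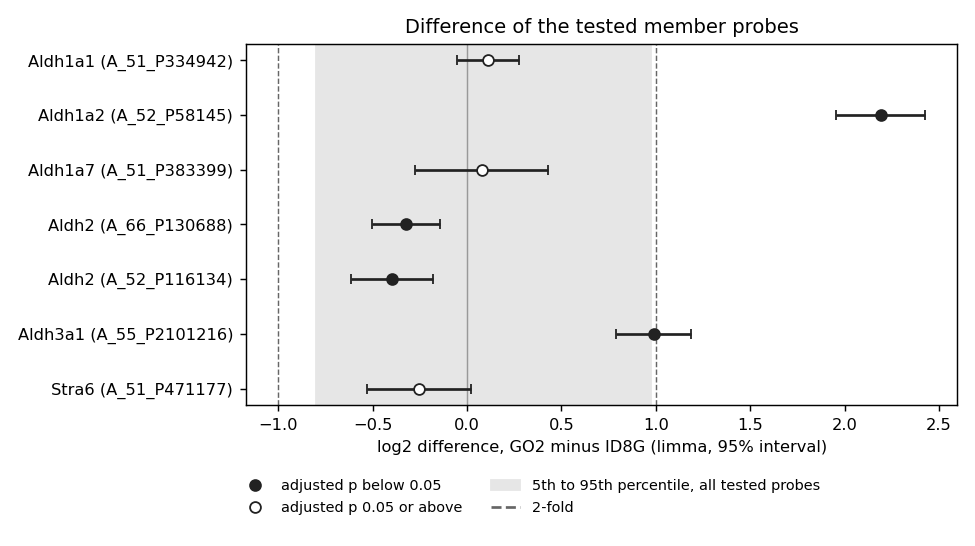
Difference of each tested member probe, GO2 minus ID8G, on the log2 scale, with its 95% interval from limma (n = 2 arrays per line); filled points have an adjusted p below 0.05, dashed lines mark 2-fold, and the gray band holds the 5th to 95th percentile of all 28370 tested probes, -0.80 to 0.97. Aldh1a2 at 2.19 lies beyond 2-fold with its whole interval, the interval of Aldh3a1 spans 2-fold, and both Aldh2 probes lie inside the band.

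Among the member genes whose proteins bring in or bind retinoids, only Stra6 was tested, and it did not pass. Stra6, the receptor through which retinol leaves RBP4 and enters the cell, had levels of -0.63 and -0.78 in ID8G cells and -0.86 and -1.07 in GO2 cells. The GO2 arrays were both lower, by 0.081 to 0.43, but the mean difference of -0.26 (95% interval -0.53 to 0.019, limma adjusted p = 0.12) did not pass. Under spike-in scaling, where the median of all probes was -0.23, Stra6 differed by -0.46 with an adjusted p of 0.024. Crabp1, a cytoplasmic protein that binds retinoic acid, had levels between -6.10 and -4.90 on one probe and between -6.03 and -5.62 on the other, which has 10 spots per array. Neither probe was well above background on any array.

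**Figure D3:**
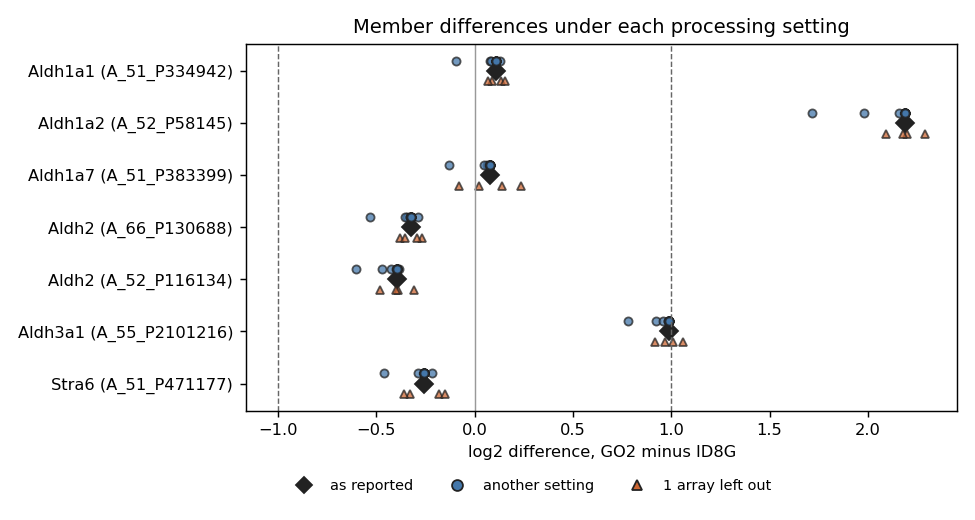
Difference of each tested member probe under the processing used here (diamonds), under each other processing setting (circles) and with 1 array left out (triangles), as log2 GO2 minus ID8G; dashed lines mark 2-fold. Aldh1a2 ranged from 1.72 to 2.29 and stayed beyond 2-fold, Aldh3a1 ranged from 0.78 to 1.06 and straddled it, and Aldh1a1 and Aldh1a7 each took both signs.

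The other genes of the pathway were read from lists of the same fit, for which the same 4.5% and 3.34% of all tested probes are the background. Setting genes with a bound to that bound left the medians as given, except where a second value is printed. Of the other aldehyde dehydrogenases, 14 of 15 genes were tested with 19 probes, of which 3 probes (2 genes) were called higher and 1 lower, with a median difference of 0.15. Aldh1l1 and Aldh1l2, the cytosolic and mitochondrial enzymes that oxidize 10-formyltetrahydrofolate in folate metabolism, rose. Aldh1l1 went from -2.62 and -2.66 in ID8G cells to -0.20 on both GO2 arrays, a difference of 2.44 or 5.42-fold (limma adjusted p = 0.000208). Aldh1l2 went from -0.96 and -0.78 to 1.43 and 1.49, 5.03-fold (limma adjusted p = 0.000428), and its other probe rose 3.29-fold, a call that was lost without the first or the second GO2 array (limma adjusted p = 0.059 and 0.057). Aldh1b1, a mitochondrial enzyme for acetaldehyde and other aldehydes, fell from 0.95 and 0.89 to -1.19 and -0.99, a level 4.02-fold lower (limma adjusted p = 0.000602). Aldh7a1, an enzyme of lysine breakdown, differed by 0.68 and 0.999 on its 2 probes, the second just under the 2-fold minimum and called without the first ID8G array (1.08) or the second GO2 array (1.06). Aldh3b1 differed by -0.39 and the brighter probe of Aldh16a1 by 0.062. The other tested probe of Aldh16a1 differed by -0.38 (limma adjusted p = 0.074) and was not well above background on either GO2 array.

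Of 31 genes for retinoid supply, storage and clearance, 18 were tested with 22 probes, of which 2 probes were called higher and 5 probes (4 genes) lower, with a median difference of -0.30. Among retinol carriers, Rbp4, the ligand of Stra6, was not well above background on either ID8G array. It had -2.21 and -2.35 in GO2 cells, at least 2.63-fold higher. The limma adjusted p of 0.014 belongs to the measured difference of 3.07, which uses these dim ID8G readings, and not to the bound. Without the first or the second GO2 array Rbp4 was not called (limma adjusted p = 0.065 and 0.060). The carriers Rbp2 and Rbp7, which hold retinol inside the cell, fell, Rbp7 2.13-fold and Rbp2 at least 1.35-fold, since Rbp2 was not well above background on either GO2 array. With normexp background correction both were under 2-fold, at -0.54 for Rbp2 and -0.47 for Rbp7. Fabp5, a fatty acid carrier that also binds retinoic acid, fell from 7.46 and 7.53 to 6.26 and 6.20, 2.40-fold lower.

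Among the enzymes that convert retinol and retinaldehyde, Adh7, an alcohol dehydrogenase that oxidizes retinol, rose from -3.36 and -3.39 to -1.03 and -1.28, 4.65-fold (limma adjusted p = 0.000657). Dhrs3, which reduces retinaldehyde back to retinol, fell from 4.11 and 4.06 to 2.35 and 2.34, 3.33-fold lower (limma adjusted p = 0.000314). Its other probe fell 2.10-fold, a difference of -1.07 that lies near the 2-fold minimum. Rdh12, another retinaldehyde reductase, differed by 0.077 and did not pass. Chosen after its values were seen, the retinol dehydrogenase Rdh10 differed by -0.88 (limma adjusted p = 0.0016) and missed the 2-fold minimum. Rdh5 of the same list differed by -0.87, also under 2-fold, while Dhrs4 differed the other way, by 0.34 and 0.43. At an adjusted p below 0.05 with no minimum fold, 3 genes of this list were higher and 9 lower. Of the genes that break down retinoic acid, Cyp26a1 and Cyp26c1 were not well above background on any array. Cyp26b1, also chosen after its values were seen, had 0.86 on both arrays of ID8G cells and 1.36 and 2.01 in GO2 cells, a difference of 0.82 (limma adjusted p = 0.058). Without the first GO2 array it differed by 1.15 and was called (limma adjusted p = 0.00745).

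**Figure D4:**
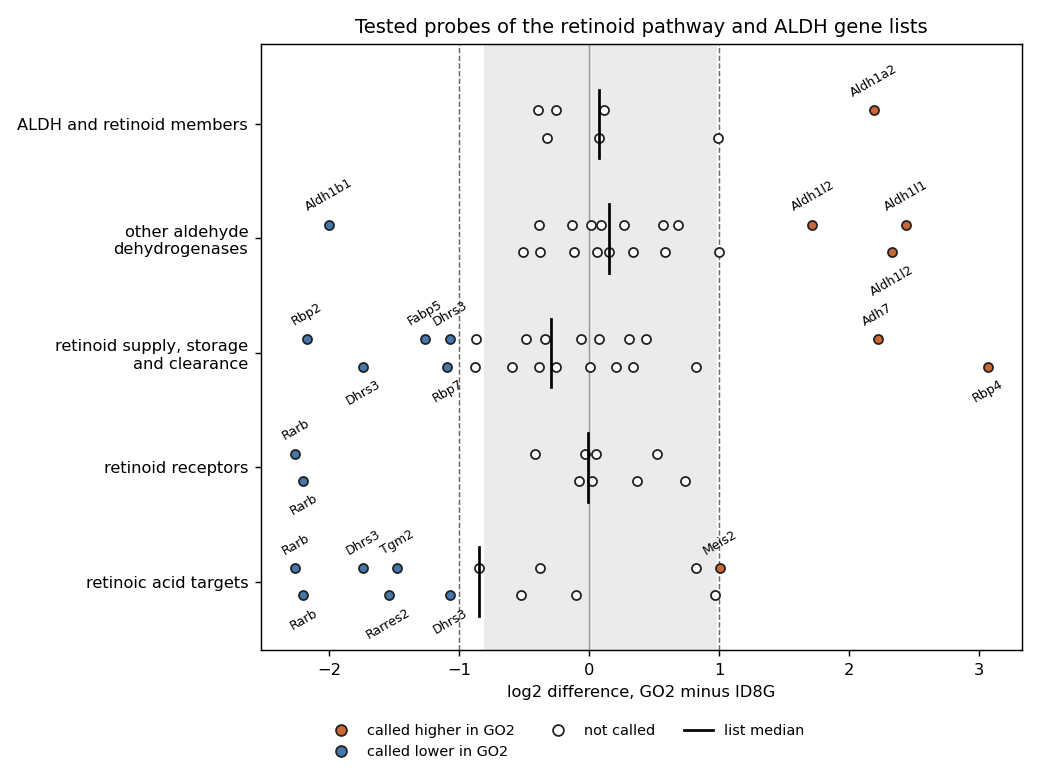
Difference of every tested probe of the members and of the 4 pathway lists, as log2 GO2 minus ID8G; colored points were called and carry the gene symbol, bars are list medians, dashed lines mark 2-fold, and the gray band holds the 5th to 95th percentile of all tested probes. Aldh1a2 at 2.19 and Rarb at -2.20 and -2.26 lie outside the band on opposite sides, a gene on 2 lists is drawn in both, and Rbp4, Rbp2 and Rarres2 are drawn at their measured difference although 1 line was not well above background.

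Of the 6 retinoid receptors, 5 were tested with 10 probes, of which 0 were called higher and 2 lower, both of Rarb, with a median difference of -0.0067. Rarb, a retinoic acid receptor whose own gene is a target of retinoic acid, fell from 0.56 and 0.42 in ID8G cells to -1.79 and -1.64 in GO2 cells. The difference was -2.20 (95% interval -2.44 to -1.96, limma adjusted p = 0.000502), or 4.59-fold lower. Its second probe differed by -2.26 but was well above background on 1 of the 2 GO2 arrays. Rara, which encodes another of these receptors, differed by 0.37 and 0.74 on its 2 probes (limma adjusted p = 0.013 and 0.0065), under 2-fold. Rarg at -0.037 and the 3 probes of Rxrb at -0.076 to 0.050 did not pass, and the probes of Rxra disagreed, at 0.52 (limma adjusted p = 0.0051) and -0.42 (limma adjusted p = 0.0685).

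Rarb and Cyp26a1 are the genes of these lists whose promoter window holds a match to the retinoic acid response element DR5. This element is a pair of half-sites spaced by 5 bases, each searched as RGKTCA, where R is A or G and K is G or T. A half-site therefore need not be AGGTCA. The element is shown in capitals with 20 bases on either side, 5′ to 3′ on the strand of the gene, from RefSeq on GRCm38.p6, at chr14:16575493-16575549 (minus strand) for Rarb and chr19:37697756-37697812 (plus strand) for Cyp26a1.
Rarb: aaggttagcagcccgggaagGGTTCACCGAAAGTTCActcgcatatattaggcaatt
Cyp26a1: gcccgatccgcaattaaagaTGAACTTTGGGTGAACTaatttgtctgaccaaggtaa

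Searched on both strands, DR5 was present in 32 of 32851 promoters (0.0974%). It begins 53 bases before the start site in Rarb, in the direction of the gene. In Cyp26a1 it lies on the opposite strand, so the capitals there are its reverse complement. Both genes are well known to be induced by retinoic acid, and here Rarb fell while Cyp26a1 was not well above background in either line.

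The list of 16 retinoic acid targets shares Rarb, Dhrs3, Cyp26a1, Cyp26b1 and others with the lists above. Of its genes, 9 were tested with 13 probes, of which 1 probe was called higher and 6 probes (4 genes) lower, with a median difference of -0.85, or -0.69 with Rarres2 at its bound. Beside Rarb and Dhrs3, the called genes that fell were Tgm2, a transglutaminase, and Rarres2, which encodes the secreted protein chemerin. Tgm2 went from 3.91 and 3.88 in ID8G cells to 2.45 and 2.38 in GO2 cells, 2.78-fold lower (limma adjusted p = 0.000481), and Rarres2 was at least 1.61-fold lower, with a difference of -0.52 and no call after normexp background correction. Meis2, a homeobox gene, was the called gene that rose. Its 2 probes differed by 0.97 and 1.003, on either side of the 2-fold minimum, and without the second ID8G array the second differed by 0.97 and was not called. Meis1, a related homeobox gene, differed by -0.38 and -0.52 on its 2 probes (limma adjusted p = 0.011 and 0.016), under 2-fold. Cyp26b1, described above, differed by 0.82 (limma adjusted p = 0.058) and was not called.

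Of 11 markers that are used beside ALDH activity to describe stem-like cells, 6 were tested with 8 probes, of which 2 were called higher and 2 lower, with a median difference of 0.013. Cd24a, a surface glycoprotein, rose 30.8-fold on one probe and at least 30.9-fold on the other. Lgr5, a receptor of Wnt pathway ligands, went from 1.89 and 1.90 in ID8G cells to -0.96 and -0.95 in GO2 cells, 7.21-fold lower (limma adjusted p = 0.000189). Kit, a receptor tyrosine kinase, was at least 3.69-fold lower, and Pou5f1 differed by -0.80. Cd44, an adhesion receptor, differed by 0.087 and -0.0036 on its 2 tested probes and did not pass, and a further probe of it was not tested. Epcam, Ly6a, Prom1, Sox2 and Thy1 were not tested, since none was well above background on both arrays of a line.

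Both lines held the markers of their labelled origin. Of 11 ovarian surface and mesothelial markers, 10 were detected above background on all 4 arrays, with Krt7 on none, and 10 were tested. Their median difference was -0.096, with Upk3b called higher at 1.08 and Krt19 called lower at -1.65, while Wt1, Upk1b, Gata4 and Lrrn4 did not pass. At an adjusted p below 0.05 with no minimum fold, 2 genes were higher and 4 lower. Among them were Nr2f2 at 0.41 (limma adjusted p = 0.0091) and Msln at -0.82 (limma adjusted p = 0.0018). Their summed linear level, in which the brightest probes weigh most, was 667 to 674 in ID8G cells and 385 to 389 in GO2 cells, and the keratins Krt18, Krt19 and Krt8 differed by -0.81, -1.65 and -0.55. Of 10 fibroblast markers, 6 passed background on every array and 4 on none, and the sum moved the other way, from 107 to 108 in ID8G cells to 189 to 191 in GO2 cells. Col1a1, Col1a2, Col3a1 and Pdgfra were called higher, while Dcn differed by -0.63 and Dpt, Fap, Lum and Pi16 were on no array. Of 11 leukocyte markers, 6 had their brightest probe above background on all arrays, with sums of 24.7 to 27.5 and 24.2 to 24.4. These were Itgam, Csf1r, Cd14, Cd68, Fcer1g and Cd3e. The brighter probe of Itgam had levels of 4.18 and 4.39 in ID8G cells and 4.13 and 4.17 in GO2 cells. Ptprc, Adgre1, Lyz2, Cd79a and Tyrobp were on none. Endothelial markers summed to 0.205 to 0.254 and 0.228 to 0.255, with 7 of 8 genes on no array. Of 7 adipocyte markers, 2 were above background on all arrays, Adipoq, Plin1 and Cfd were on none, and the sums were 3.67 to 3.81 and 2.54 to 2.84. Fabp4 was called lower in GO2 cells on both probes (limma adjusted p = 0.00085 and 0.00032). It was well above background on no GO2 array, so it was at least 6.34-fold and 1.81-fold lower. The fibroblast sum was higher in the line in which Aldh1a2 and Aldh3a1 were higher, and the part of these markers in the results was not tested.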

How the data were processed

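RNA of ID8G and GO2 cells was measured on 4 one-color Agilent arrays, 2 per line, labelled with Cy3. The authors deposited, for each array, the intensity of every spot on a linear scale after background subtraction by Feature Extraction 11.5.1.1, with marks for outlier spots, saturated spots and spots well above background and no normalization between arrays. They also deposited a table of log2 values from GeneSpring. In that table the log2 intensity is scaled to the array's 75th percentile and centered on the median of each probe, and the median of each array in it was 0.104, -0.0478, 0.038 and -0.0486. That table served as 1 alternative only, and 0 per-sample columns were left unused.

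From the intensities, outlier spots were left out, log2 was taken, the 75th percentile over the probes that are not controls was subtracted, and the spots of a probe were averaged. The 59305 spots gave 56605 probes. Names came from RefSeq accessions through a table of GRCm38.p6, which gave 32989 probes (58.3%) 1 symbol. The arrays were designed on mm9, so coordinates are given only for promoters, from a RefSeq table of GRCm38.p6. Probes were tested where each array of at least 1 line had them well above background. The fit used limma 3.58.1 (R 4.3.3) with a single term for cell line, and a call needed a Benjamini-Hochberg adjusted p below 0.05 over all tested probes and an absolute log2 difference of at least 1. A probe with several spots counted as above background where at least as many spots were as were not. Where neither array of a line was well above background, the fold is a lower bound, taken after raising the level on each array to the lowest signal that the scanner software marked as above background there. The call and the p of such a probe belong to its measured difference and not to the bound. The procedure was tested on simulated data. Scripts ran in python 3.11.15, and figures were drawn with matplotlib 3.10.9. The number of arrays limits the precision.

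Named are every member gene with all its probes and, from each other list, the genes with a called probe, the 3 with the highest mean signal and the 3 with the largest absolute difference, and the probe with the highest mean level leads. Other named genes were chosen after their values were seen. For 2 genes of the lists for retinoid supply and retinoic acid targets, results are not reported here, and the counts and medians of these lists describe the remaining genes only. The members, lists and tests were chosen with earlier results of these data known. The replicate numbers were checked for pairing: the deviations of same-numbered arrays from their group means correlated with r = 0.0273 and the labels name no shared batch, so no block was used. The replicate number of all 4 arrays equals the second number of their slide position, so the replicate block is also a block for that position. Alternatives comprised normexp on the median pixel of each spot (offset 50), quantile normalization, median centering, spike-in scaling (7 spike-ins), filters on dim probes and kept outlier spots. Further ones were a floor for low signals, an intensity trend in the variance, a replicate block, the deposited log2 values, other thresholds and each array left out. The last was the unpaired test with Welch's correction, called the methods' test below. The methods name it for comparisons of 2 groups in general, and for the arrays they name GeneSpring without a test.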

Additional observations from a re-analysis of the deposited data

How the results depend on the processing

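Aldh1a2 was called higher in 18 of 19 alternatives, with a difference of 1.72 to 2.29. The alternative with no minimum fold is the reported fit without the fold limit, so it could not lose a call. Aldh1a2 was lost with the methods' test after Benjamini-Hochberg adjustment (adjusted p = 0.17). After adjustment that test called 0 probes higher and 3 lower over the whole array, and 0 on every list in either direction. Before adjustment it called 1001 and 728 over the whole array. Over all probes (1277 higher and 947 lower as reported), normexp gave 818 and 517, the filter for all 4 arrays 666 and 606, limma treat 748 and 440 and no minimum fold 4834 and 5348. Spike-in scaling gave 1434 lower. With no minimum fold the members had 2 higher and 2 lower, other aldehyde dehydrogenases 8 and 3, supply genes 4 and 11, receptors 3 higher and targets 2 higher. The called lower supply genes were 2 probes with normexp and with treat, and 1 was called higher with no filter on dim probes, the filter for all 4 arrays, treat and the methods' test before adjustment. With the floor for low signals, 4 probes of the supply genes and 5 of the targets were called lower. The bounds of Rbp2 and Rarres2 are under 2-fold. The called lower receptors were 1 probe with the filter for all 4 arrays and with the methods' test before adjustment. The targets called higher were 0 with normexp, quantile normalization, median centering, spike-in scaling, the deposited values and treat. The stem-like markers had 1 higher and 1 lower with the filter for all 4 arrays.

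With 1 array left out, calls were 1230 to 1311 higher and 934 to 1010 lower over all probes, 1 to 2 higher and 0 lower for the members, 1 to 2 higher and 5 lower for the supply genes, and 0 to 2 higher and 6 lower for the targets. The member count was 2 without the second ID8G or the second GO2 array, through Aldh3a1. The supply count was 1 without the second GO2 array, where Rbp4 was lost, and the target count was 2 without the first GO2 array, where Cyp26b1 was called, and 0 without the second ID8G array, where Meis2 was lost. Where this leaves a line with 1 array, that array is assumed to vary like those of the other line.

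The replicate block gave 1251 higher and 936 lower and changed no call of a named probe and no count of a list. With the block the adjusted p was 0.00616 for Aldh1a2 and 0.014 for Aldh3a1. Of the values for named probes, 805 kept direction and side, 48 lost a call, 18 gained one and 15 changed sign. None of those that changed sign was called. Under spike-in scaling these were Aldh1a1 (-0.097), Aldh1a7 (-0.13), Aldh16a1 (-0.15), Rdh12 (-0.13), Rxrb (-0.16 and -0.18) and Cd44 (-0.12), and with normexp Aldh16a1 (-0.059) and Rarg (0.00486). The dimmest Rxrb probe was -0.00643 with median centering, -0.00137 without the second ID8G array and -0.0843 without the second GO2 array. Over the arrays left out, Aldh1a7 ranged from -0.082 (without the second ID8G array) to 0.24, the same Rxrb probe up to 0.13, and Cd44 from -0.030 to 0.023, above 0 without the first ID8G array (0.012) or the second GO2 array. The cause was not tested. The slide as a block was not run, because there is 1 slide.

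Signal over background limits 3 member probes, those of Aldh1a3 and Crabp1, for which no difference was measurable.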
